A study of Homo sapiens with 12 samples.

Results

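The 10 genes described here, YOD1, PAM, AVL9, FBXO8, ENTPD4, NECAP1, GABARAPL1, PSKH1, AMMECR1 and ANKRD52, had been picked because their mRNA stood higher with each of the PTPN14 siRNAs across 3 human kidney cell lines. All 10 were found in the deposited table of 20979 entries, and all 10 were among the 12257 genes with enough signal to be tested. PolyA RNA was sequenced in 12 libraries, 1 for each of 4 reagents in each of 3 established epithelial lines. HK2 derives from immortalised proximal tubule cells of a non-malignant kidney, whereas A704 and CAKI-1 came from kidney carcinomas. Each line received a non-targeting control siRNA, an siRNA labelled LATS, or one of the 2 independent PTPN14 siRNAs, PTPN14-1 and PTPN14-2, at 25 nM, with RNA isolated 48 h later. There were thus 3 libraries per reagent, and the replicates of a reagent were the 3 lines. The labels do not say that the libraries came from separately repeated cultures, so each p-value reflects only how far these particular libraries scatter. The titles and the descriptions number the PTPN14 siRNAs in opposite ways, and the numbers of the titles are used. Whether the siRNA named LATS targets LATS1, LATS2 or the pair is not stated in the labels.

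PTPN14, a cytoplasmic protein tyrosine phosphatase, can keep the transcriptional co-activator YAP out of the nucleus, and LATS1 and LATS2 are the kinases of the Hippo pathway that phosphorylate YAP and its relative TAZ. In the nucleus these co-activators act through TEAD transcription factors, often at sites shared with AP-1. The 10 genes are not a textbook set of YAP targets. Several encode proteins of the endomembrane system: YOD1 removes ubiquitin from clients of the ATPase VCP, FBXO8 is an F-box protein with a Sec7 domain, AVL9 is a conserved protein of late secretory traffic, NECAP1 works with the clathrin adaptor AP-2, and GABARAPL1 is an ATG8-family protein of autophagosomes. PAM amidates peptide hormones in secretory granules, ENTPD4 is a Golgi and lysosomal nucleoside diphosphatase, PSKH1 is a serine kinase found at the Golgi and in the nucleus, and ANKRD52 is a regulatory subunit of the phosphatase PP6. AMMECR1 is an X-linked nuclear protein, and its gene lies in a region deleted in a contiguous-gene form of Alport syndrome, a hereditary kidney disease.

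The targeted genes were checked first. With PTPN14-1, PTPN14 mRNA in A704, HK2 and CAKI-1 was at 21.4%, 28.7% and 25.2% of each line's control. With PTPN14-2 it stood at 37.3%, 37.5% and 31.2% in the same order. LATS1 stood at 30.7%, 27.9% and 22.5% of control with the LATS siRNA (log2 change -1.36, SE 0.11, limma adjusted p = 0.000178), while LATS2 did not pass the test (log2 change 0.12, adjusted p = 0.618). PTPN14-1 also raised LATS2 by 0.47 on the log2 scale (adjusted p = 0.00909), which PTPN14-2 did not (0.07, adjusted p = 0.771), and the difference between the siRNAs was 0.40 (adjusted p = 0.0112). The libraries held an estimated 16.95 to 23.2 M counted reads, and between 10846 and 11063 genes stood above 1 FPKM in each. The A704 control, against which every A704 change is measured, had a labelled RNA integrity number of 9.6, and all other libraries had 10. The kidney tubule epithelium markers PAX8, KRT8, KRT18 and KRT19 stood above 1 FPKM in all 12 libraries, while PAX2 and CDH1 did so in A704 alone and EPCAM and LHX1 in HK2 alone. None of 5 endothelial markers reached 1 FPKM in any library. Of 6 leukocyte markers CD68 alone did, in all 12 libraries, and CD3E was at 0 throughout. Of 5 neuron markers, SNAP25 and TUBB3 stood above 1 FPKM in all 12 libraries and SYT1 in all HK2 and CAKI-1 libraries. The fibroblast marker COL1A1 did so in 1 A704 and 3 HK2 libraries, and PDGFRB in 2 CAKI-1 libraries. Summed FPKM over the 5 fibroblast and mesangium markers, of which DCN and LUM passed 1 FPKM in all HK2 libraries and in no other line, ranged from 1.02 to 54.6 in the control libraries, 1.56 to 70.1 with LATS, 0.90 to 66.5 with PTPN14-1 and 0.77 to 83.5 with PTPN14-2.

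Promoter windows are shown for 3 of the genes, because these represent different responses described below. YOD1 stood higher with PTPN14 siRNA and near control with LATS siRNA, PSKH1 was the one member that passed the test with LATS siRNA, and GABARAPL1 lay at the edge of the selection. The windows run from 250 bases before to 50 bases after a RefSeq transcription start, are taken from RefSeq on GRCh38.p14 and are written 5′ to 3′ on the gene's strand. Capitals mark matches on either strand to 6 letter patterns: CATTCC (TEAD), CACGTG (an E-box), GTAAACA (FOXO), TGANTCA (AP-1), GGGCGG (a GC box) and CCGGAAG (ETS).
YOD1, chr1:207051159-207051458, minus strand: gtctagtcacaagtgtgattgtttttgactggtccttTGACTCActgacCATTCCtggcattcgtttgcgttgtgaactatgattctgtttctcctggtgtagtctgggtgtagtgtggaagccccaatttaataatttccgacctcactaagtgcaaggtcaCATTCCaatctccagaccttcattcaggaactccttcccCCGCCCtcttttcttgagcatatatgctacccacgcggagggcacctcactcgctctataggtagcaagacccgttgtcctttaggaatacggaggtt
PSKH1, chr16:67893004-67893303, plus strand: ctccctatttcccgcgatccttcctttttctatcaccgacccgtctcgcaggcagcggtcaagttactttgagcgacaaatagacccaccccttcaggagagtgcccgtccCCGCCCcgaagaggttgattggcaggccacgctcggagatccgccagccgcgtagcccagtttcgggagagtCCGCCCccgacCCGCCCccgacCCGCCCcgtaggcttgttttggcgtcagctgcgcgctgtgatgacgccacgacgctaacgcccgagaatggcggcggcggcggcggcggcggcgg
GABARAPL1, chr12:10212627-10212926, plus strand: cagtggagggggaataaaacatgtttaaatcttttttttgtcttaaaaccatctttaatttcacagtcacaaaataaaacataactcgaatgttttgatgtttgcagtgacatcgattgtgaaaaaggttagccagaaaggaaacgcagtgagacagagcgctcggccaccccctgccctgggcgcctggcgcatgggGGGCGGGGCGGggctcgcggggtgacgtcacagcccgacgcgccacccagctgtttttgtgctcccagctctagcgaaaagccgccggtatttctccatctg

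The YOD1 window held 2 TEAD letter matches, at -201 and -87 from the start, an AP-1 match at -213 and a GC box at -48. In the GENCODE v29 annotation YOD1 begins upstream of this window, at 207052980, so these matches lie inside the annotated gene. At least 2 TEAD matches together with an AP-1 match occurred in 57 of 35116 RefSeq windows (0.162%); this combination was counted because the YOD1 window holds it, after that window was seen. The PSKH1 window held 4 GC boxes, at -139, -67, -56 and -45, and 3 or more GC boxes, a number likewise set after the window was seen, occurred in 15.8% of all windows. The GABARAPL1 window held 2 overlapping GC boxes, at -52 and -47, and it too lies inside the annotated gene, which begins at 10212458. RefSeq windows were matched for 9 of the 10 genes, 12 windows in all because PAM had 3 and AMMECR1 had 2. ENTPD4 was not matched. Among the 12 windows the TEAD letters occurred in the YOD1 window alone (14.0% of all windows hold them), and so did the AP-1 letters (7.71% of all windows). The E-box CACGTG occurred in none (7.26% of all), FOXO letters in the FBXO8 window (3.42% of all), ETS letters in those of AVL9 and FBXO8 (10.3% of all), and GC boxes in 8 windows of 7 genes (45.0% of all). The median GC content of the 12 windows was 58.7%, which was also the median of all windows. These letter matches are a description of the windows and not evidence of binding.

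All 10 genes stood above the same line's control in all 6 PTPN14 libraries, a pattern shown by 6.88% of the genes tested. That pattern is what the genes were picked for, so their PTPN14 values are given as a description without a test. On the log2(FPKM + 1) scale, the change over the 3 lines ran from 0.30 (NECAP1) to 0.53 (ENTPD4) with PTPN14-1, with a median of 0.44. With PTPN14-2 it ran from 0.37 (ENTPD4) to 0.57 (GABARAPL1), with a median of 0.45. The medians of all genes tested were 0.00 and -0.00. The 10 genes were among 17 that were higher with both siRNAs at an adjusted p under 0.05 for each (0.139% of the genes tested). The others were TSPAN2, PRSS23, CRIM1, INSIG1, P3H2, PLOD2 and RDH11, named here after their values were seen. For each siRNA alone, 2.37% of genes were higher at that threshold with PTPN14-1 and 0.449% with PTPN14-2. GABARAPL1 was just inside the threshold, with changes of 0.44 and 0.57, and TRAM1, a translocon-associated protein of the endoplasmic reticulum, was just outside it, with 0.45 and 0.40. The membership depended on single libraries: without the CAKI-1 control library 0 of the 10 passed with both siRNAs, without the HK2 control or the CAKI-1 PTPN14-2 library 1 did, and without the A704 control or the HK2 PTPN14-2 library 2 did.

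**Figure D1:**
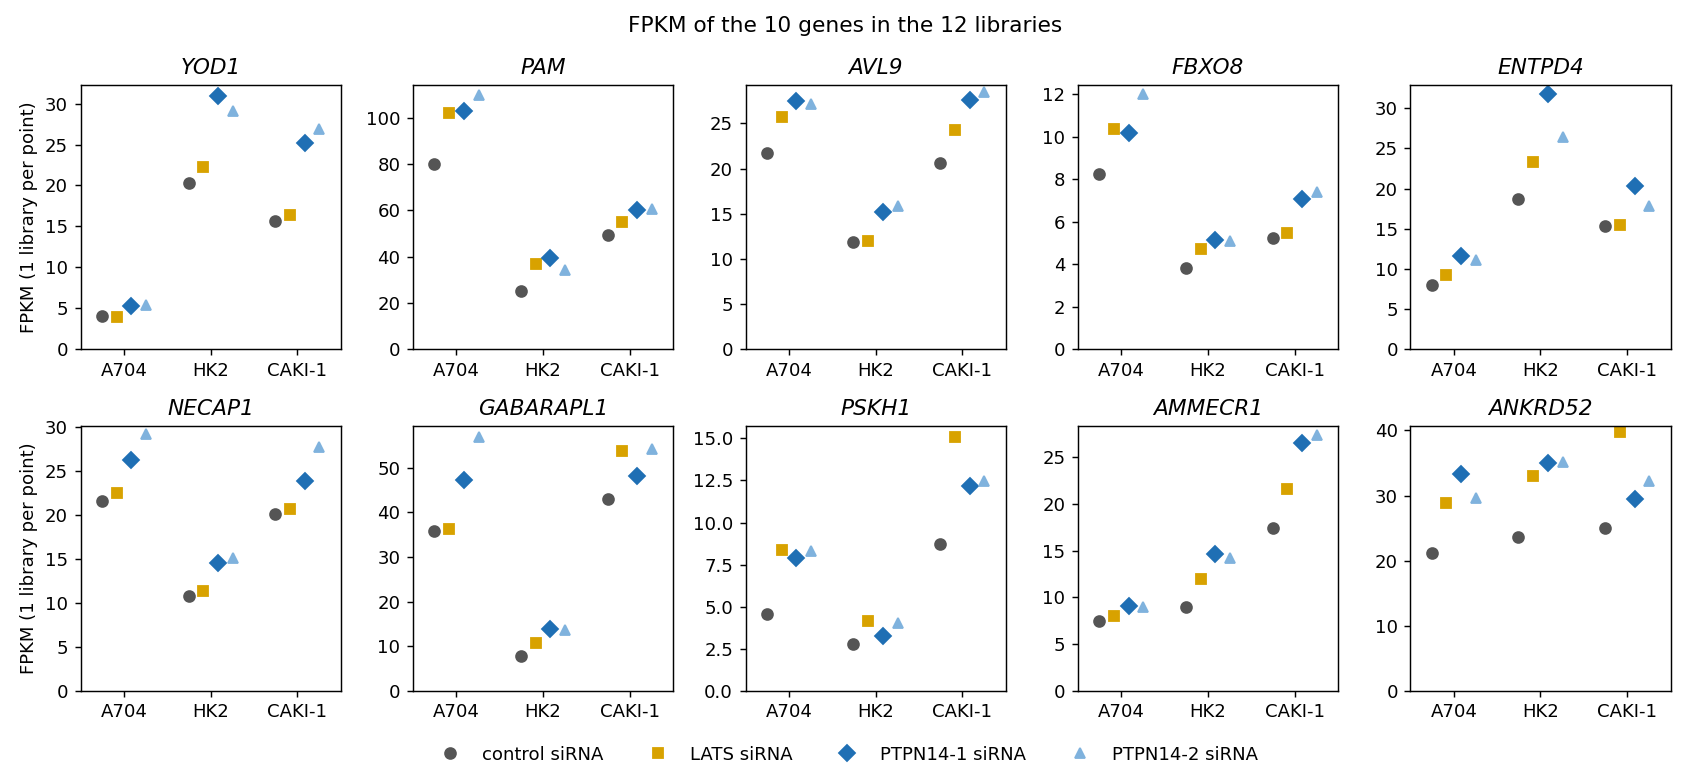
FPKM of each of the 10 genes (vertical axes, FPKM, starting at 0) in the 12 libraries, grouped by cell line on the horizontal axes; each point is 1 library and its shape and colour give the siRNA. Both PTPN14 points lie above the control point of the same line in every panel, while the LATS point usually lies between control and PTPN14 and is the highest in CAKI-1 for PSKH1 (15.1 FPKM) and ANKRD52 (39.7 FPKM).

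Of the 2 genes of the ubiquitin system, YOD1 is described first. In A704 YOD1 stood at 4.08 FPKM with control, 3.91 with LATS, 5.28 with PTPN14-1 and 5.42 with PTPN14-2. The HK2 libraries held 20.3, 22.3, 30.9 and 29.1 FPKM in the same order, and those of CAKI-1 15.7, 16.4, 25.2 and 26.9. In each line the control and LATS libraries were thus close to each other and both PTPN14 libraries stood above them. The mean PTPN14 change of YOD1 was 0.69 in CAKI-1, 0.54 in HK2 and 0.32 in A704, the line in which the gene was lowest. FBXO8 was expressed at between 3.81 and 12.02 FPKM, and its mean PTPN14 change varied little between lines, from 0.35 in HK2 to 0.40 in CAKI-1. Its LATS library lay between the PTPN14 libraries in A704 (10.4 FPKM against 10.2 and 12.02) and close to control in CAKI-1 (5.46 against 5.22).

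The 3 genes of vesicle traffic and autophagy differed in how even their PTPN14 changes were across lines, with 1 library per siRNA in each line. AVL9 ranged from 11.9 to 28.4 FPKM over the 12 libraries, and its mean PTPN14 change over A704, HK2 and CAKI-1 was 0.32, 0.36 and 0.43. NECAP1 stood at 21.5 FPKM with control, 22.4 with LATS, 26.2 with PTPN14-1 and 29.2 with PTPN14-2 in A704. The corresponding NECAP1 values were 10.7, 11.3, 14.5 and 15.1 in HK2, and 20.1, 20.7, 23.8 and 27.7 in CAKI-1. As for YOD1, the LATS libraries were near control in all 3 lines, and PTPN14-2 gave the higher value of the PTPN14 pair each time. GABARAPL1 was the least even: in HK2 it stood at 7.76 FPKM with control, 10.6 with LATS, 13.8 with PTPN14-1 and 13.6 with PTPN14-2. Its A704 values were 35.9, 36.2, 47.2 and 56.9, and its CAKI-1 values were 43.0, 53.8, 48.3 and 54.2. The LATS library was therefore level with control in A704, and in CAKI-1 it lay above PTPN14-1 and just below PTPN14-2. The mean PTPN14 change of GABARAPL1 was 0.75 in HK2, 0.52 in A704 and 0.25 in CAKI-1.

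Among the enzymes of the secretory pathway, PAM had the highest mean FPKM of the 10 genes over the 12 libraries (63.0). Its values ran from 25.2 to 110.0 FPKM, and in the HK2 PTPN14-2 library ANKRD52 (35.2) stood above PAM (34.1). In A704 PAM stood at 80.0 FPKM with control, 102.2 with LATS, 102.8 with PTPN14-1 and 110.0 with PTPN14-2. Its HK2 values were 25.2, 36.8, 39.3 and 34.1, and its CAKI-1 values 49.5, 55.0, 60.4 and 60.5. All LATS libraries of PAM stood above control, and in HK2 the LATS value exceeded that of PTPN14-2. ENTPD4 was higher with PTPN14-1 than with PTPN14-2 in all 3 lines, at 11.6 against 11.2 FPKM (A704), 31.7 against 26.4 (HK2) and 20.3 against 17.9 (CAKI-1). Its control values were 8.01, 18.7 and 15.4 FPKM in that order, below both PTPN14 libraries of the same line each time. The ENTPD4 gene overlaps LOXL2, a lysyl oxidase-like enzyme of the extracellular matrix, on the same strand. LOXL2 changed by 0.16 with PTPN14-1 and 0.19 with PTPN14-2, and by 0.51 with LATS (adjusted p = 0.027); how the authors' counting split reads of this overlap is not given in the sources used here.

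PSKH1 differed from YOD1 in the place of its LATS libraries. In A704 PSKH1 stood at 4.57 FPKM with control, 8.37 with LATS, 7.91 with PTPN14-1 and 8.28 with PTPN14-2. The HK2 libraries held 2.75, 4.16, 3.28 and 4.0 FPKM in the same order, and those of CAKI-1 8.72, 15.1, 12.2 and 12.4. The LATS library was the highest of the 4 in every line, by a wide margin over PTPN14 in CAKI-1 and by little in A704. The mean PTPN14 change of PSKH1 was largest in A704 (0.71), followed by CAKI-1 (0.45) and HK2 (0.30), where the PTPN14-1 library moved by 0.19. ANKRD52 stood at 21.2 FPKM with control, 28.9 with LATS, 33.3 with PTPN14-1 and 29.6 with PTPN14-2 in A704. It stood at 23.7, 33.1, 34.9 and 35.2 FPKM in HK2, and at 24.9, 39.7, 29.4 and 32.3 in CAKI-1. All 3 LATS libraries of ANKRD52 exceeded the highest control library, and the one in CAKI-1 exceeded every PTPN14 library. AMMECR1 stood at 7.43, 7.98, 9.05 and 9.02 FPKM with control, LATS, PTPN14-1 and PTPN14-2 in A704. Its values were 8.96, 11.95, 14.7 and 14.19 in HK2, and 17.5, 21.7, 26.5 and 27.4 in CAKI-1. The PTPN14 libraries agreed closely for this gene within each line, with the LATS library between them and control throughout.

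In these libraries the 10 genes did not share one order of lines in the size of the PTPN14 change. Each line had 1 library per siRNA. Within a line PTPN14-1 minus PTPN14-2 reached -0.26 (GABARAPL1 in A704) and 0.25 (ENTPD4 in HK2). The orders below therefore cannot be told from scatter between libraries. The median over the 10 genes of the mean of both PTPN14 libraries was 0.39 for A704, 0.53 for HK2 and 0.37 for CAKI-1, while the interquartile range of all genes tested ran from -0.10 to 0.10, from -0.12 to 0.10 and from -0.12 to 0.10. The change was largest in HK2 for 6 genes (PAM, ENTPD4, NECAP1, GABARAPL1, AMMECR1 and ANKRD52), in CAKI-1 for 3 (YOD1, AVL9 and FBXO8) and in A704 for PSKH1. It was smallest in CAKI-1 for 5, in A704 for 3 and in HK2 for 2. The share of all genes with each place was not counted, and the places were taken on the log2(FPKM + 1) scale alone. Some rest on small gaps, such as 0.546 in HK2 against 0.544 in A704 for ANKRD52. FBXO8 likewise lay at 0.38, 0.35 and 0.40 in A704, HK2 and CAKI-1. PAM changed by 0.52 in HK2, 0.41 in A704 and 0.28 in CAKI-1, and ENTPD4 by 0.61, 0.46 and 0.30. ANKRD52 changed by 0.55, 0.54 and 0.29, so that CAKI-1 was the low line for these 3 genes. AMMECR1 instead changed by 0.63 in HK2 and 0.60 in CAKI-1 but by 0.25 in A704. NECAP1 was the most even beside FBXO8, at 0.43, 0.35 and 0.34 in HK2, A704 and CAKI-1. One PTPN14 siRNA gave the higher value in all 3 lines for 3 of the 10 genes (30%), as it did for 48.1% of all genes tested. ENTPD4 was higher with PTPN14-1 by 0.05, 0.25 and 0.18 in A704, HK2 and CAKI-1. NECAP1 was lower with PTPN14-1 in all 3 lines (differences of -0.15, -0.06 and -0.21), as was PSKH1 (-0.06, -0.22 and -0.03). Differences between lines in the PTPN14 change were not tested for these genes, since the same libraries chose them. The model also fitted the difference between the PTPN14 siRNAs for every gene, but for the same reason no test of it is reported for these genes.

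**Figure D2:**
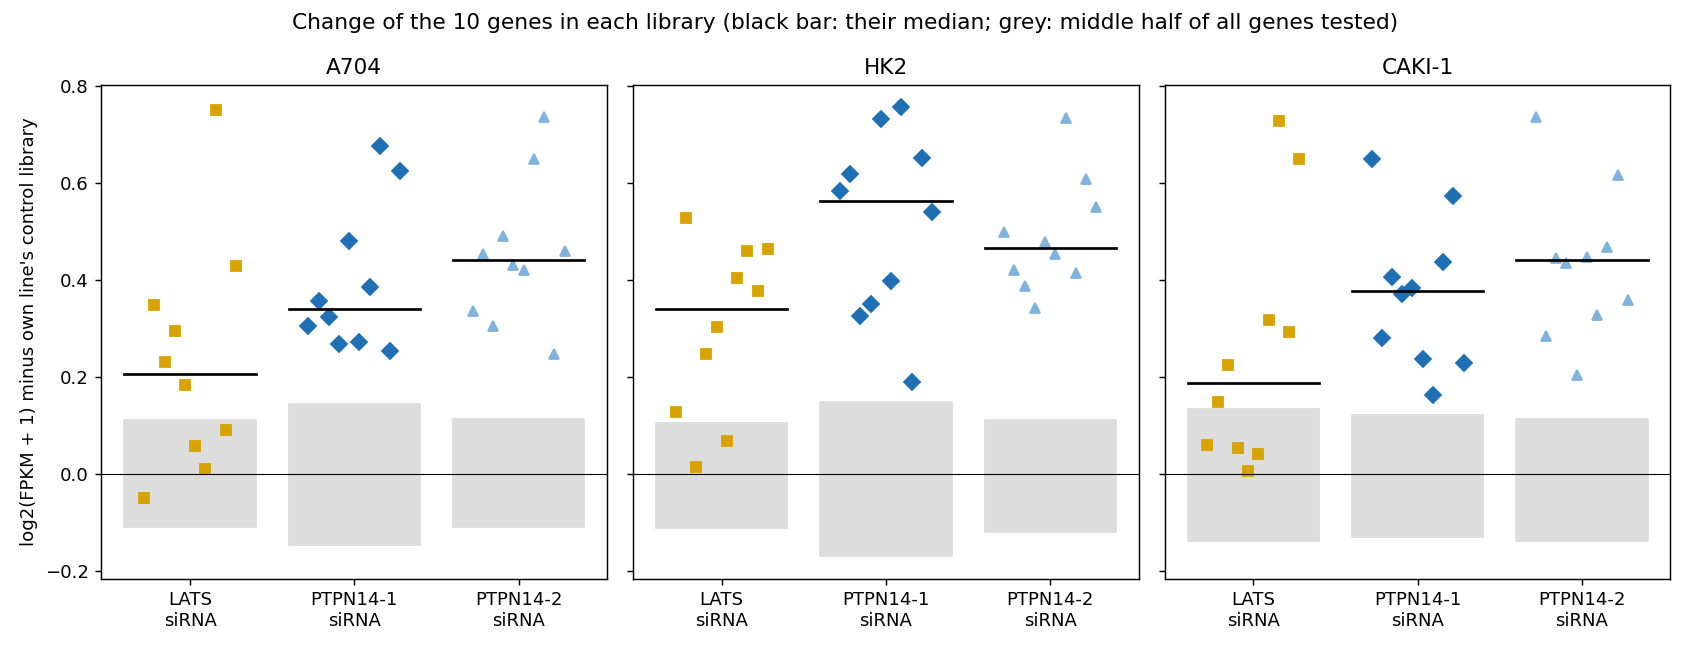
Change of each of the 10 genes in each siRNA library on the log2(FPKM + 1) scale, as the difference from the control library of the same line (vertical axis); panels are lines, points are genes, black bars are the median of the 10 genes and grey boxes the interquartile range of all 12257 genes tested. The 10-gene medians for PTPN14-1 and PTPN14-2 were 0.34 and 0.44 (A704), 0.56 and 0.47 (HK2) and 0.38 and 0.44 (CAKI-1), against 0.21, 0.34 and 0.19 for LATS.

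The LATS libraries were not used to pick the genes, but the control libraries they are compared with were, so a control library that is low for a gene raises all 3 of its changes. The genes also passed the test with both PTPN14 siRNAs, which is easier for a gene with little scatter. That same scatter enters the LATS test. The shares over all genes below therefore come from genes not chosen in this way, and they are not a like comparison. With the LATS siRNA 1 of the 10 genes, PSKH1, passed the test, against 0.122% of all genes tested in either direction and 0.0245% in the upward direction. PSKH1 rose by 0.65 on the log2 scale (SE 0.09, 95% interval 0.44 to 0.85, adjusted p = 0.0244) and was higher in 3 of 3 lines. The call ended without any one of 5 libraries, the A704 control (adjusted p = 0.132), A704 LATS (0.103), HK2 LATS (0.0728), CAKI-1 control (0.142) and CAKI-1 LATS (0.183), while the estimate stayed between 0.56 and 0.74 over all settings tried. ANKRD52 followed at 0.52 (95% interval 0.30 to 0.73, adjusted p = 0.0992) and PAM at 0.34 (0.16 to 0.53, adjusted p = 0.192), each higher in 3 of 3 lines but not past the threshold. AMMECR1 at 0.25 (0.07 to 0.44, adjusted p = 0.316) and FBXO8 at 0.20 (0.02 to 0.38, adjusted p = 0.403) completed the 5 genes with an unadjusted p under 0.05, a level that 5.7% of genes reached in the upward direction. GABARAPL1 stood at 0.25 (-0.01 to 0.50), ENTPD4 at 0.17 (-0.01 to 0.34) and AVL9 at 0.16 (-0.01 to 0.32), with adjusted p of 0.455, 0.463 and 0.454. NECAP1 at 0.06 (-0.09 to 0.20, adjusted p = 0.777) and YOD1 at 0.05 (-0.14 to 0.24, adjusted p = 0.865) were the lowest. The median LATS change of the 10 genes was 0.22, against -0.00 for all genes tested, whose interquartile range ran from -0.09 to 0.09.

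Placed within each line, the LATS library lay between control and both PTPN14 libraries in 22 of the 30 combinations of gene and line (73.3%). The selection fixes much of this place, since it took genes with low control and high PTPN14 values. The share was 6.97% over all genes tested and 32% over the genes that were above control in all 6 PTPN14 libraries, and no test was made of the difference. The LATS library lay between the PTPN14 libraries in 3, above both in 4 (PSKH1 in all 3 lines and ANKRD52 in CAKI-1) and below control in 1 (YOD1 in A704). For 9 of the 10 genes the LATS library was above control in all 3 lines, as it was for 18.2% of all genes tested. The mean of the 10 genes, centred within each line, was -0.27, -0.33 and -0.27 in the control libraries of A704, HK2 and CAKI-1. It was -0.04, -0.03 and -0.01 in the LATS libraries, 0.12, 0.19 and 0.11 with PTPN14-1 and 0.18, 0.16 and 0.17 with PTPN14-2. The LATS response of no gene of the 12257 passed the limma test for a difference between lines, at a background of 0.922% (113 genes) at an unadjusted p under 0.05, and the unadjusted p of the 10 genes ran from 0.312 (PAM) to 0.993 (NECAP1). That test had the spread between PTPN14 pairs alone to draw on. It treated the PTPN14 siRNAs of a line as replicates, so any difference between the siRNAs counted as scatter. Fewer genes fell under an unadjusted p of 0.05 than that level alone would give, so these p-values run high. A missed threshold therefore does not show that the lines responded alike.

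**Figure D3:**
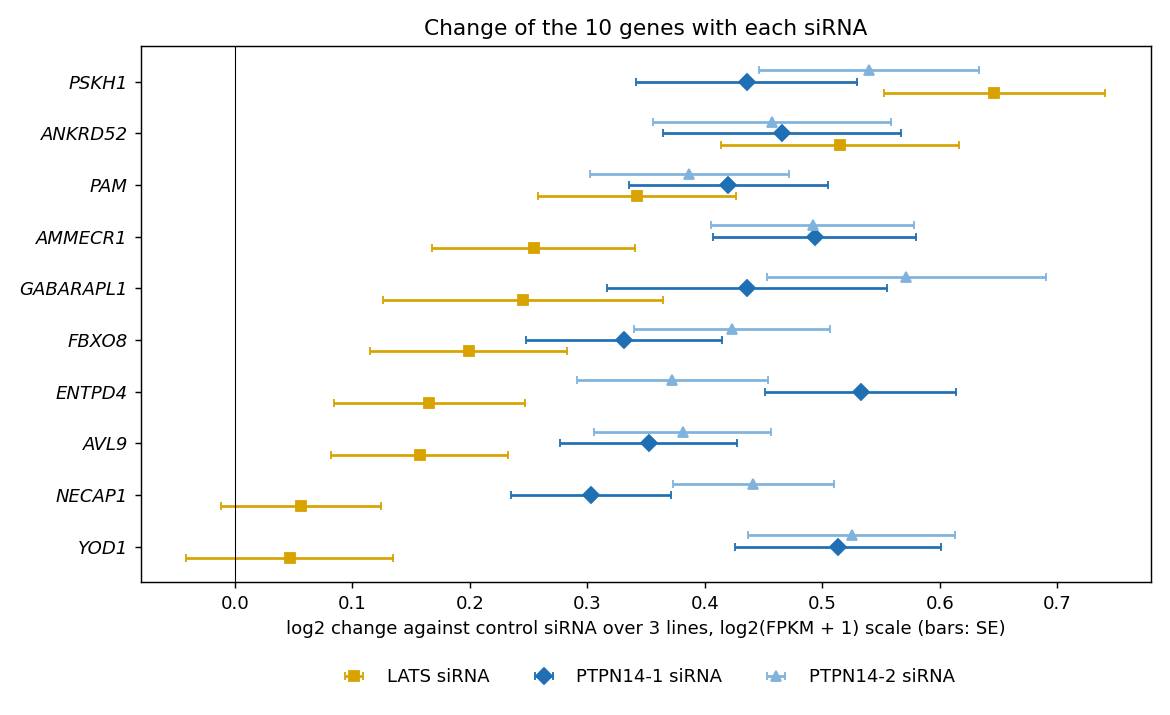
Fitted change of each of the 10 genes against control siRNA over the 3 lines (horizontal axis, log2(FPKM + 1) scale), with 3 libraries per siRNA; points are estimates, bars are standard errors, and genes are ordered by the LATS change. The LATS estimate falls from 0.65 for PSKH1 to 0.05 for YOD1, whereas the PTPN14 estimates, by which the genes were chosen, all lie between 0.30 and 0.57.

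For every member except ANKRD52, the widest difference in level between lines was larger than any of its siRNA changes. Between HK2 and A704, 9 of the 10 genes passed the limma test (3 higher and 6 lower in HK2), against 84.6% of all genes tested (44% higher and 40.6% lower). Between CAKI-1 and A704, 6 passed (4 higher and 2 lower in CAKI-1), against 81.1% (41.8% and 39.3%), and between CAKI-1 and HK2, 9 passed (7 higher and 2 lower in CAKI-1), against 81.7% (40.4% and 41.3%). YOD1 was 2.22 higher on the log2 scale in HK2 than in A704 (SE 0.08, adjusted p = 9.2e-12) and 0.29 lower in CAKI-1 than in HK2 (log2 difference -0.29, adjusted p = 0.00317). ENTPD4 had the same order, with HK2 above A704 by 1.23 and above CAKI-1 by 0.50 (CAKI-1 minus HK2 -0.50). GABARAPL1 had a different order: HK2 was lowest, at -1.86 from A704 (SE 0.10, adjusted p = 1.07e-09), and CAKI-1 and A704 did not differ past the threshold (0.19, adjusted p = 0.0969). AVL9 and NECAP1 were likewise lowest in HK2 (-0.85 and -0.90 from A704), with CAKI-1 and A704 within -0.02 and -0.10 of each other (adjusted p = 0.784 and 0.123). PAM and FBXO8 fell in the order A704, CAKI-1, HK2, with HK2 at -1.53 and -0.97 from A704 and CAKI-1 at -0.79 and -0.62. PSKH1 was highest in CAKI-1, 1.52 above HK2 and 0.67 above A704, and AMMECR1 was highest there too, 1.36 above A704 and 0.85 above HK2. ANKRD52 differed between no pair of lines past the threshold (0.16, 0.15 and -0.01, adjusted p = 0.0994, 0.119 and 0.938).

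The gene families and complexes around the members were examined as 16 lists holding 238 other genes that were tested. With PTPN14-1, 20 of the 238 (8.4%) passed the test, 12 higher and 8 lower, against 5.83% of all genes (2.37% higher and 3.45% lower). With PTPN14-2, 0 passed in limma (38 genes, 16%, at an unadjusted p under 0.05, against 15% of all genes), where 1.35% of all genes passed. With LATS, 0 passed as well (36 genes, 15.1%, at an unadjusted p under 0.05, against 11.2% of all genes). The median change over the 238 was 0.04, 0.02 and 0.04 with PTPN14-1, PTPN14-2 and LATS. By list, the LATS median ran from -0.05 for the PP6 complex (1 of 8 estimates above 0) to 0.17 for the lysosome (27 of 29 above 0). The LATS median over all genes tested was -0.00, and no list was tested as a set.

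Close relatives of the members varied in their values. AMMECR1L, the one paralogue of AMMECR1, went the other way. It stood at 9.60 FPKM with control, 8.69 with LATS, 7.04 with PTPN14-1 and 7.25 with PTPN14-2 in A704, at 11.5, 11.1, 9.73 and 10.2 in HK2, and at 8.79, 9.11, 7.29 and 7.37 in CAKI-1. All 6 PTPN14 libraries lay below the control of the same line, and the share of all genes that do so was not counted. The opposite pattern, above control in all 6, was shown by 6.88% of the genes tested, a share that does not stand for the downward one. AMMECR1L fell by 0.29 with PTPN14-1 (SE 0.07, adjusted p = 0.0407), a call that ended in 10 of 12 fits without a single library (adjusted p up to 0.189), and its change with PTPN14-2 was -0.25 (adjusted p = 0.130). NECAP2, the paralogue of NECAP1, rose with PTPN14-1 by 0.40 (adjusted p = 0.0414) and stood at -0.10 with PTPN14-2 (adjusted p = 0.712). That call also ended in 10 of 12 such fits (adjusted p up to 0.181). None of the 4 other ATG8 genes tested passed with any of the 3 siRNAs. GABARAP and GABARAPL2 had changes between -0.03 and 0.13. MAP1LC3C, named after its values were seen, stood at 0.22 with PTPN14-1, 0.37 with PTPN14-2 and 0.23 with LATS (adjusted p = 0.179, 0.0822 and 0.400), the same sign as GABARAPL1. PSKH2 was listed at 0 in every library.

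None of the 8 other PP6 subunits and partners tested passed the test in the upward direction with any siRNA. ANKRD28 and ANKRD44, the alternative ankyrin subunits, had changes of 0.16 and 0.02 with PTPN14-1, -0.11 and -0.08 with PTPN14-2, and -0.14 and -0.04 with LATS, none past the threshold. PPP6C, the catalytic subunit, fell with PTPN14-1 by 0.67 (SE 0.09, adjusted p = 0.00172) and stood at -0.03 with PTPN14-2 (adjusted p = 0.911). Its PTPN14-1 libraries held 7.87, 11.9 and 9.71 FPKM in A704, HK2 and CAKI-1, below 10.8, 22.4 and 16.9 in control and 11.9, 19.9 and 16.2 with PTPN14-2. The difference in PPP6C between the PTPN14 siRNAs was itself past the threshold (-0.64, adjusted p = 0.000997), as was that in NECAP2 (0.49, adjusted p = 0.0093), whereas AMMECR1L differed by -0.04 between them (95% interval -0.20 to 0.12, adjusted p = 0.783).

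**Figure D4:**
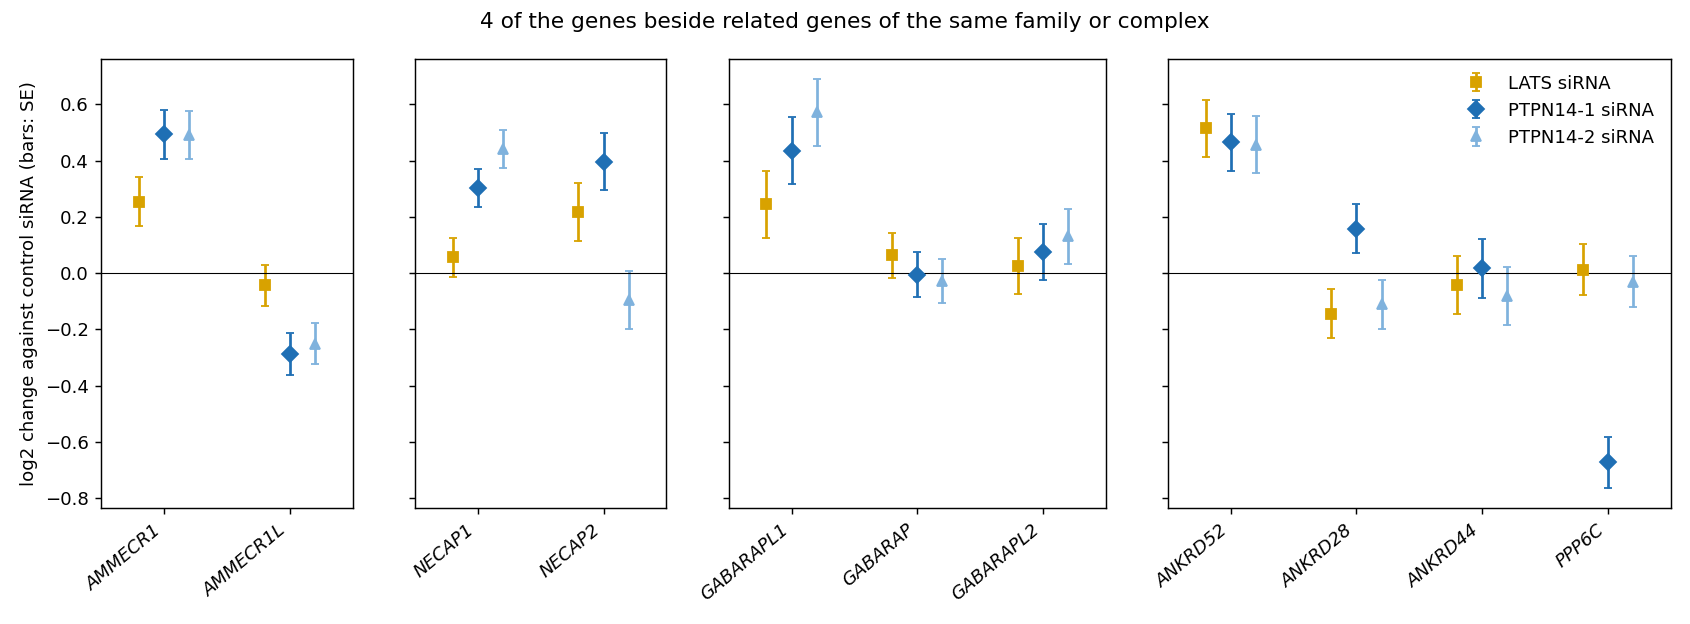
Fitted change against control siRNA over the 3 lines (vertical axis, log2(FPKM + 1) scale; points are estimates and bars standard errors, 3 libraries per siRNA) for AMMECR1, NECAP1, GABARAPL1 and ANKRD52, each beside related genes of its family or complex. AMMECR1L lies below 0 with both PTPN14 siRNAs (-0.29 and -0.25) while AMMECR1 lies at 0.49 with each, and PPP6C is low with PTPN14-1 alone (-0.67).

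In the remaining lists, every gene that passed did so with PTPN14-1 and none with PTPN14-2 or LATS. With PTPN14-1, 2.37% of all genes tested were higher and 3.45% lower. Of 30 genes of the autophagy machinery and its cargo receptors 4 rose and none fell: TAX1BP1 (0.39, adjusted p = 0.013) and OPTN (0.42, adjusted p = 0.0459), which link ubiquitinated cargo to ATG8 proteins, ATG9A (0.39, adjusted p = 0.0289), a membrane scramblase, and ATG5 (0.29, adjusted p = 0.0336), part of the ATG8 conjugation enzyme. TAX1BP1 stood at 42.3, 29.3 and 69.4 FPKM in the A704, HK2 and CAKI-1 controls, at 59.4, 39.98 and 83.3 with PTPN14-1 and at 56.1, 34.2 and 86.3 with PTPN14-2. Its PTPN14 values stood above control within every line, as did those of 6.88% of the genes tested. Its change of 0.31 with PTPN14-2 missed the threshold (limma adjusted p = 0.0822). The TAX1BP1 call ended without the A704 control, HK2 control or HK2 PTPN14-1 library (adjusted p up to 0.0692), and those of ATG9A, ATG5 and OPTN ended in 5, 6 and 9 of 12 such fits (adjusted p up to 0.126, 0.140 and 0.165). Of 29 lysosomal genes, GLA, the alpha-galactosidase, rose by 0.49, and LIPA, the acid lipase, fell by 0.94, with ATP6V1A, a subunit of the proton pump, down by 0.56 (log2 changes; adjusted p = 0.00755, 0.0018 and 0.0118). ATP6V1A stood at 0.37 with PTPN14-2 (adjusted p = 0.123), and the difference between the siRNAs was -0.93 (adjusted p = 0.000272). Of 22 genes of VCP and ER-associated degradation, the process YOD1 takes part in, EDEM2 (0.30) and DERL1 (0.32) rose, and none of 13 other OTU deubiquitinases passed.

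NEDD4 rose by 0.42 among 7 ligases of its family (adjusted p = 0.00564). CANT1, a Golgi nucleotidase like ENTPD4, fell by 0.84 (adjusted p = 0.000294), and ENTPD7 rose by 0.58 (adjusted p = 0.0324), among 6 nucleoside diphosphatases. CANT1 stood at 17.2, 20.4 and 28.3 FPKM in control and 10.1, 10.7 and 14.5 with PTPN14-1, but at 16.5, 18.8 and 28.6 with PTPN14-2. The difference between the PTPN14 siRNAs was past the threshold for CANT1 (-0.78, adjusted p = 0.000228), LIPA (-1.07, adjusted p = 0.00033), GLA (0.54, adjusted p = 0.00235) and NEDD4 (0.40, adjusted p = 0.00352). ARF1 fell by 0.33 among 15 ARF GTPases and their Sec7 exchange factors, and FBXO21 fell by 0.45 among 27 F-box genes. None of 15 DENN-domain genes and none of 19 genes of peptide hormone processing and copper supply passed with any siRNA. Among 12 genes through which siRNAs act or small RNAs are made, TNRC6A (0.44) and AGO4 (0.30) rose and DROSHA fell by 0.53. The calls of LIPA, GLA, NEDD4, CANT1 and PPP6C held in all 12 fits without a single library. Those of EDEM2, DERL1, ARF1, FBXO21, ENTPD7, ATP6V1A, TNRC6A, AGO4 and DROSHA ended in 2 to 11 of these fits, with the HK2 control and HK2 PTPN14-1 libraries ending each of them (adjusted p up to 0.217).

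The profile of the 10 genes was also compared with that of every other gene. Pearson's r with the mean line-centred profile of the 10 genes over the 12 libraries was highest for MCU, the pore of the mitochondrial calcium uniporter (0.95), and SHTN1 (0.94). It was 0.92 for IFNAR1, a chain of the type I interferon receptor, HADHA, an enzyme of mitochondrial fatty acid oxidation, MYLK, the myosin light chain kinase, ZFYVE9, RMDN3 and FBXO34. Each member compared with the mean of the other 9 gave values from 0.62 (PSKH1) and 0.74 (ANKRD52) to 0.93 (AMMECR1). The points of each correlation share their lines, their controls and their libraries' scaling, so the values are a description. The 10 genes were also picked for low control and high PTPN14 values. That choice by itself makes the members resemble each other, and it sets the profile that the other genes were matched to.

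The 10 genes lie on 8 chromosomes and share no locus. In the GENCODE v29 annotation of GRCh38, YOD1 spans chromosome 1 from 207043849 to 207052980, PAM chromosome 5 from 102753981 to 103031105 and AVL9 chromosome 7 from 32495426 to 32588721. PSKH1 spans chromosome 16 from 67893272 to 67929678 and AMMECR1 the X chromosome from 110194186 to 110440233. NECAP1, GABARAPL1 and ANKRD52 all lie on chromosome 12, from 8076939 to 8097859, from 10212458 to 10223130 and from 56237807 to 56258391. The median of their longest annotated 3′ UTRs was 2910 bases, against 1352 over 11836 genes tested, and YOD1 (5174 bases) and ANKRD52 (5338 bases) were longer than 92.7% and 93.2% of those genes. FBXO8, at 757 bases, was longer than 32.1%. No test was made of this difference. Genes on the opposite strand overlap YOD1 (PFKFB2), FBXO8 (CEP44) and PSKH1 (CTRL), among others. Their changes were 0.04, -0.03 and -0.18 with PTPN14-1 and 0.18, 0.11 and -0.18 with PTPN14-2, below those of the overlapping members.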

How the data were processed

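PolyA RNA libraries were made with a stranded kit, per the labels' protocols. The submitters' processing notes name the aligner STAR 2.4.0g1 and the build GRCh38.p1. The values deposited by the authors are FPKM for each symbol, with 2 decimals kept; no label names the unit, and it was inferred from steps in the values that follow gene length. Which counter, annotation and strand setting were used, and how libraries were scaled, is not given in the sources used here. Entries carrying dates in place of symbols (29) were left out, and 692 of 19130 symbols stood on more than 1 line, none of them a member. Depth was estimated from the steps of single-exon genes, searched between 10 and 28 M reads: 71.4 to 94.7% of 27 to 51 genes per library lay on the step (within the rounding of 0.0051), against a median of 2.9 to 9.8% at other steps. Since the estimate rests on few genes, no count test was run, and the FPKM test of the planned design was used.

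Genes with more than 1 FPKM in 3 or more libraries were tested on log2(FPKM + 1) with limma 3.58.1 (R 4.3.3, trend and robust moderation) in 1 model of reagent (4 levels) and cell line over all 12 libraries, leaving 6 residual degrees of freedom, with Benjamini-Hochberg adjustment over all 12257 genes and a threshold of 0.05. A change on this scale understates that of low genes. Cell line was the block, numbered as the replicate, since the libraries of a line share their cells: deviations from the reagent means correlated at 0.96 to 0.98 within a line (18 pairs) and at -0.63 to -0.38 between lines (36 pairs). Centring on means of 3 lines pushes the values between lines below 0, so their sign says nothing about the lines. The procedure was run on simulated data with independent scatter in each library and no siRNA response that differed between lines. Its outcome is not given here, and it does not cover responses that differ between lines. The members and the gene lists were chosen with earlier results of these data known. Named genes are the members, the siRNA targets, up to 4 called genes per list, close paralogues where measured, and the 8 genes most like the members' profile. The differences between the PTPN14 siRNAs in non-members were added after the data were seen. Alternatives covered the pseudocount, the filter, the scaling, the moderation, the block, the reagent term, and each library and line left out.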

Additional observations from a re-analysis of the deposited data

How the results depend on the processing

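No result past the threshold changed direction under any alternative, while the LATS change of YOD1 (-0.01 without the CAKI-1 control library, to 0.13) and the differences of AVL9 between CAKI-1 and A704 (-0.05 to 0.02) and of ANKRD52 between CAKI-1 and HK2 (-0.10 to 0.09), which were not past it, crossed 0. Without a filter on low values 3 genes passed with LATS (15 in the reported fit), 352 with PTPN14-1 (714) and 60 with PTPN14-2 (166). With no replicate block, so that cell line was left in the residual, 0 genes passed in limma with any siRNA (10, 65 and 31 at an unadjusted p under 0.05, in the same order), and PSKH1 was lost with LATS. With the PTPN14 siRNAs as 1 level, 3 genes passed with LATS. Leaving out 1 library or 1 line gave 0 to 20 genes with LATS, 39 to 827 with PTPN14-1 and 14 to 252 with PTPN14-2. For LATS the count fell to 0 without CAKI-1 (736 genes at an unadjusted p under 0.05). For both PTPN14 siRNAs the lowest counts came from leaving out a whole line. All counts between lines stayed within 1.5 times. The LATS change of the members kept its side of the threshold in 229 fits and lost it in 11, all of PSKH1: those without 1 library given above, without each line (adjusted p from 0.185 to 0.657), without the filter (0.109), with 1 PTPN14 level (0.0644) and with no block (1). Between lines 651 fits kept theirs and 9 did not. ANKRD52 then differed between HK2 and A704 in 3 fits (adjusted p down to 0.0274) and between CAKI-1 and A704 in 2 (down to 0.0153), GABARAPL1 (down to 0.0331) and NECAP1 (0.0438) between CAKI-1 and A704 in 2 and 1, and YOD1 no longer between CAKI-1 and HK2 without the reagent term (0.153). The number of members past the threshold with both PTPN14 siRNAs, an alternative chosen after the data were seen, was 10 with either other pseudocount, the stricter filter or median scaling, 8 with quantile normalisation, 6 without trend and robust moderation, 2 without the filter and 0 without the block, without HK2 or without CAKI-1. The causes were not tested. The estimated depth puts the lowest member values, those of FBXO8 and PSKH1 in HK2, at about 203 and 208 reads.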
